A study of Saccharomyces cerevisiae with 10 samples.

Results

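The proteasome mRNAs of Saccharomyces cerevisiae were taken as 34 genes of 6477 in the R64 annotation. They are the 14 genes for the core particle, 18 genes for the regulatory particle, the transcription factor gene RPN4 and the assembly chaperone gene UMP1. A cluster, that is a stretch of RNA called as crosslinked to protein, was given to a gene when its midpoint lay on the same strand within the gene, up to 100 nt upstream of the start codon or up to 150 nt downstream of the stop codon. All 34 genes had at least 1 cluster in each of the 4 lists from light gradient fractions, which was so for 77.6% of the 5911 mRNA genes. Taken list by list, a cluster was present on 34 of 34 after glucose starvation (87.2% of mRNA genes), after nitrogen starvation (90.1%), in total RNA (84.7%) and in log-phase polyA RNA (94.0%). In the heavy fraction list, 0 of 115 clusters lay on them, which allows a share of up to 2.61%.

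The study used gPAR-CLIP, a transcriptome-wide form of crosslinking in which all RNA bound by any protein is recovered, so a cluster names a bound stretch but not the protein on it. The yeast was WT BY4742, labelled MATa, with the alleles his3-delta-1 and leu2-delta-0, together with lys2-delta-0 and, for uracil, ura3-delta-0. It took up 4-thiouracil, a photoreactive base, at 200 µM during growth in SD, synthetic defined medium, and it was exposed 4 times to 365 nm light at 150 mJ/cm2. The 5 groups each had 2 libraries. They were polyA RNA after 2 h in SD-glucose, polyA RNA after 2 h in SD-nitrogen, total RNA from log phase in SD, and polyA RNA from log phase in SD, all from light fractions of a sucrose gradient, and total RNA from the heavy fraction in SD. Every group carried the strain's 4 auxotrophic alleles and had taken up 4-thiouracil. Each group has 1 list of clusters for both libraries together, so every comparison below sets 1 list against 1 list. It has no replicate check, no p-value was computed, and intervals cover counting error only.

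The lists held 33345 clusters after glucose starvation, 38936 after nitrogen starvation, 51574 in total RNA and 61035 in log-phase polyA RNA, and 115 in the heavy fraction. Read depths behind the lists were not used here. In total RNA, clusters were wider (median 13.0 nt, against 10.0 nt in log-phase polyA RNA) and held more G (16.8% of clustered mRNA bases, against 7.39%). Of the marker genes of the strain, URA3 and LYS2 had no cluster in any light list, and LEU2 had none inside the gene. HIS3, whose allele is a partial deletion, had 8 clusters inside the gene in total RNA and 1 after nitrogen starvation.

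The proteasome degrades proteins tagged with ubiquitin. Its core particle is a barrel of α rings and β rings, with the proteolytic sites on β subunits, and its regulatory particle has a base, whose ATPases unfold substrates, and a lid, which removes ubiquitin. In yeast, Rpn4 is a short-lived transcription factor that binds a promoter element shared by most proteasome genes and is itself degraded by the proteasome, so that subunit mRNAs are made together. Ump1 is a chaperone that helps the core particle assemble and is then degraded.

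The shared promoter element was located in the reference sequence, without use of the clusters. It was already known as an element of proteasome genes, so a high share among them was given in advance and tests nothing. The letters GGTGGCAAA, searched on both strands from 250 nt before to 50 nt after the first base of the start codon, were found for 27 of the 34 genes, or 79.4%, against 1.22% of the 5911 mRNA genes. They lay on the strand of the gene in 19 cases and on the opposite strand in 8, where they read TTTGCCACC. PRE5, PUP1, RPN8, RPN10, RPN13, RPN4 and UMP1 had no match in this window. Examples from each subcomplex are shown with the element in capitals and 8 flanking bases on each side, 5′ to 3′ on the strand of the gene, from RefSeq's R64 genome. The coordinates are those of the capitals.
PRE10 (α ring), chrXV:1018866-1018874, minus strand: tctaaatcGGTGGCAAAaataagaa
PRE2 (β ring), chrXVI:732194-732202, plus strand: agcaaaagGGTGGCAAAacgaagaa
RPT6 (base), chrVII:411362-411370, minus strand: gcgagcgaGGTGGCAAAagttgtaa
RPN5 (lid), chrIV:190786-190794, plus strand: gacttttcGGTGGCAAAatgcaaag
RPN12 (lid), chrVI:252408-252416, plus strand: acacattaTTTGCCACCcattgaaa
The matches began between 84 nt before the start codon, in RPT6, and 183 nt before it, in PUP3.

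In the mRNAs, overlapping clusters of the 4 light lists merged into 521 sites on the 34 genes. Of these, 71 (13.6%, 95% Wilson interval 10.9 to 16.8) were called in all 4 lists, against 9.42% of 73263 sites on all mRNA genes. Such a site was present on 31 of the 34 genes, all except PRE6, RPT2 and RPT4, against 53.8% of mRNA genes. Merging chained overlapping clusters, so a site called in all 4 lists need not have a base covered in each of them. Of the 71, 59 had such a base, as had 5434 of 6905 on all mRNA genes. Proteasome mRNAs also had more sites called in total RNA alone, 206 of 521 (39.5%, 35.4 to 43.8), against 34.7% of sites on all mRNA genes.

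Sites called in all 4 lists were most frequent after the stop codon. There they made up 31 of 104 sites (29.8%, 21.9 to 39.2), against 20.9% on all mRNA genes. Within the genes they were 33 of 370 (8.92%, 6.42 to 12.3), against 6.37%, and upstream of the start codon 7 of 47 (14.9%, 7.41 to 27.7), against 14.4%. The sequences below are a selection of such sites, shown because they are stretches bound in every light list. The selection does not mirror the counts above, since sites after the stop codon are shown more often than sites within genes. Capitals mark the longest run covered in all 4 lists, and each is read 5′ to 3′ on the strand of the gene, from the R64 genome.
PRE8 (α ring), after the stop codon, chrXIII:85911-85920, minus strand: atAACTTaca
PRE9 (α ring), after the stop codon, chrVII:762231-762249, plus strand: aAAATTAAAAGtgaaagaa
PRE5 (α ring), after the stop codon, chrXIII:902539-902559, plus strand: ttctcaTTCAAAATTAAaaaa
PRE10 (α ring), before the start codon, chrXV:1018749-1018775, minus strand: cAAATTAACAaaagcataactcttcag
PRE2 (β ring), before the start codon, chrXVI:732260-732275, plus strand: taTCAATTTTCAAAag
PRE2 (β ring), before the start codon, chrXVI:732276-732296, plus strand: agaataaCAAATTTACtatta
PRE4 (β ring), after the stop codon, chrVI:249006-249034, minus strand: attttatttttATTTTTCAATTCATaata
RPT1 (base), after the stop codon, chrXI:175636-175651, plus strand: tatATATTATGagaag
RPN2 (base), within the gene, chrIX:218661-218671, minus strand: ATATTAACAAa
RPN10 (base), after the stop codon, chrVIII:499895-499908, plus strand: aAAATATCtatatg
RPN13 (base), after the stop codon, chrXII:965039-965053, minus strand: agAAAAAATATAcca
RPN11 (lid), after the stop codon, chrVI:154365-154375, plus strand: atATATTATAt
RPN12 (lid), after the stop codon, chrVI:253406-253428, plus strand: gaaaaaATTATACTaataacaat
RPN4, within the gene, chrIV:416598-416613, minus strand: tcATTATCAaaactat
RPN4, after the stop codon, chrIV:415030-415058, minus strand: aatacatatacacatctaTATATATTTac

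The capitals were rich in A and T and poor in G. Over the 59 sites that had a common run, these runs had a median of 7.00 nt and were 47.6% A, 36.3% T, 13.5% C and 2.61% G. Common runs on all mRNA genes held less A, at 36.6%, and more T, at 41.6%, with 3.30% G. The letters AATT, chosen after the runs had been seen, occurred in 28 of the 59 (47.5%), against 33.5% of 5434 such runs on all mRNA genes. The PRE9, PRE5, PRE10 and PRE4 sites and both PRE2 sites above carry them.

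Motifs known from yeast 3′ ends were searched on the strand of the gene. The letters TGTANATA, the core of the Puf3 motif, were present in the 150 nt after the stop codon of 5 of 34 genes (14.7%, against 12.8% of all mRNA genes), and TGTANNTA, a looser form that includes them, in 7 of 34 (20.6%, against 20.4%). TATATA, the efficiency element of yeast polyadenylation, was present in 18 of 34 (52.9%, against 42.9%), and TTTTT in 22 of 34 (64.7%, against 60.4%). Within 10 nt of sites after the stop codon, TATATA was found at 21.2% of proteasome sites, against 17.3% of sites on all mRNA genes. The other 3 were slightly less frequent there: TTTTT at 26.0%, against 27.4%, TGTANATA at 2.88%, against 3.32%, and TGTANNTA at 4.81%, against 5.24%. Within 10 nt of sites inside genes, TTTTT was found at 14 of 370 proteasome sites (3.78%), against 7.93% on all mRNA genes. The others were slightly more frequent there: TATATA at 1.89%, against 1.17%, TGTANATA at 0.270%, against 0.191%, and TGTANNTA at 0.811%, against 0.512%.

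**Figure D1:**
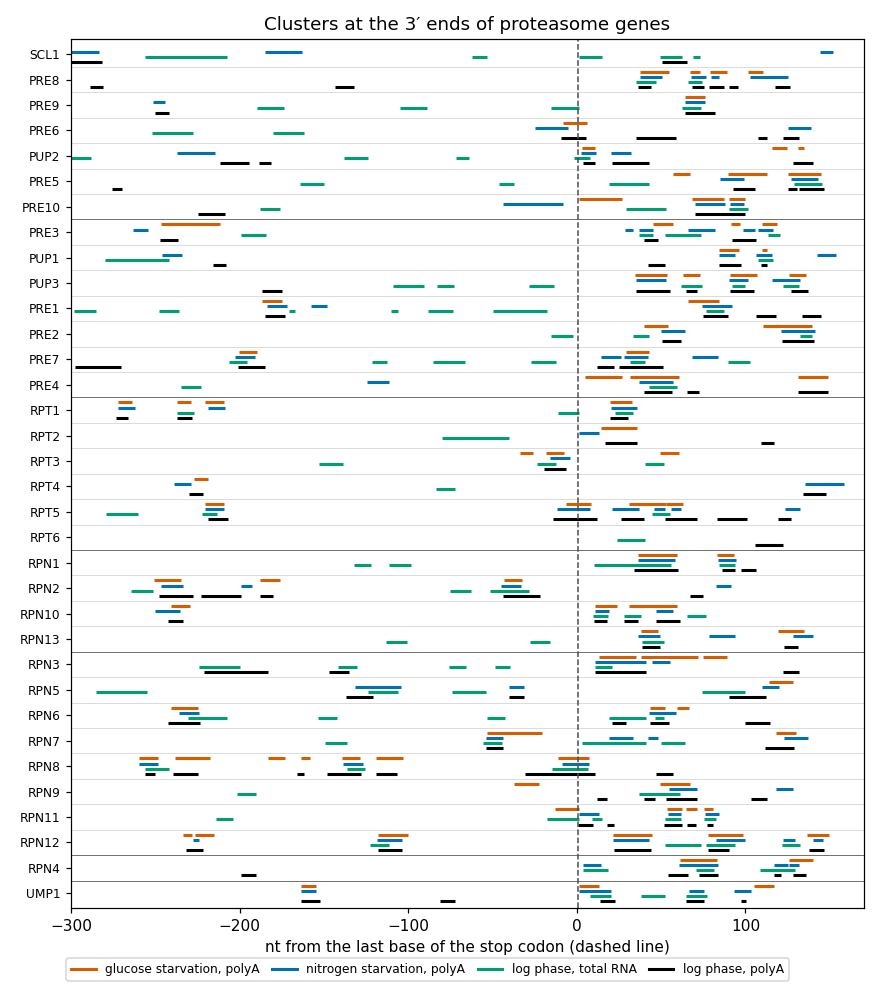
Clusters of the 34 proteasome genes between 300 nt before and 150 nt after the last base of the stop codon (x axis, nt), 1 gene a row with its rings, base and lid separated by darker lines. Within a row, bars from top to bottom are glucose starvation, nitrogen starvation, total RNA and log-phase polyA RNA, and bar length is cluster width. Bars of several colours stack after the stop codon, while the 50 nt ending 51 nt before it hold almost only total RNA clusters.

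The share of clusters after the stop codon was higher for core particle mRNAs than for regulatory particle mRNAs in each light list, though the 95% Wilson intervals of core and regulatory genes overlapped in all 4, barely in glucose starvation. There it was 45.5% of 66 core clusters (34.0 to 57.4) and 25.2% of 107 regulatory clusters (upper bound 34.2), against 30.3% on all mRNA genes. Nitrogen starvation had 43.7% of 71 (32.7 to 55.2) and 31.3% of 99 (23.0 to 41.0), against 30.0%. Total RNA had 20.2% of 119 (13.9 to 28.3) and 12.4% of 185 (lower bound 8.43), against 13.1%. Log-phase polyA RNA had 37.9% of 95 (28.8 to 47.9) and 27.5% of 138 (20.8 to 35.5), against 23.9%. The all-mRNA share lay inside the interval of the regulatory genes in each list. Gene length differed between the groups, with a median of 764.5 nt in core genes and 1297.5 nt in regulatory genes, and its part in these shares was not tested. Downstream clusters per gene, for core and regulatory genes, were 2.14 and 1.50 in glucose starvation, 2.21 and 1.72 in nitrogen starvation, 1.71 and 1.28 in total RNA and 2.57 and 2.11 in log-phase polyA RNA. All mRNA genes had 1.18, 1.31, 0.916 and 1.60 downstream clusters per gene in the same lists.

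One window before the stop codon was nearly empty in polyA RNA. Between 100 and 51 nt before the last base of the stop codon, the 34 genes had 0 of 186 clusters in glucose starvation and 0 of 185 in nitrogen starvation. Total RNA had 12 of 329 there, against 1 of 255 in log-phase polyA RNA, on UMP1. The same window held 2.74%, 2.68%, 3.18% and 2.57% of the clusters on all mRNA genes in glucose starvation, nitrogen starvation, total RNA and log-phase polyA RNA. This window was picked after the map had been seen, and its neighbours were not empty. In the last 50 nt up to the stop codon's end lay 8 proteasome clusters of glucose starvation (4.30%, against 3.71% on all mRNA genes), 8 of nitrogen starvation (4.32%, against 3.51%), 15 of total RNA (4.56%, against 3.28%) and 7 of log-phase polyA RNA (2.75%, against 3.09%). In the 50 nt upstream of the window lay 3 clusters of glucose starvation (1.61%, against 2.84% on all mRNA genes) and 4 of nitrogen starvation (2.16%, against 2.73%). Total RNA had 13 there (3.95%, against 2.98%) and log-phase polyA RNA 6 (2.35%, against 2.49%).

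Covered length was compared as nt inside clusters, scaled to 100000 nt of all clusters of that list. A log2 ratio between lists was taken after adding 20 nt to each length, and the median over all genes was subtracted, which was 0.26 for glucose starvation against log phase, 0.16 for nitrogen starvation against log phase and -0.09 for total against polyA RNA. Covered length cannot tell apart more RNA per cell, more cells and more protein on the same RNA. Counts of clusters are also given as a ratio per list size with an exact conditional 95% interval. Both starved lists were set against the same log-phase polyA list, as was the total RNA list.

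**Figure D2:**
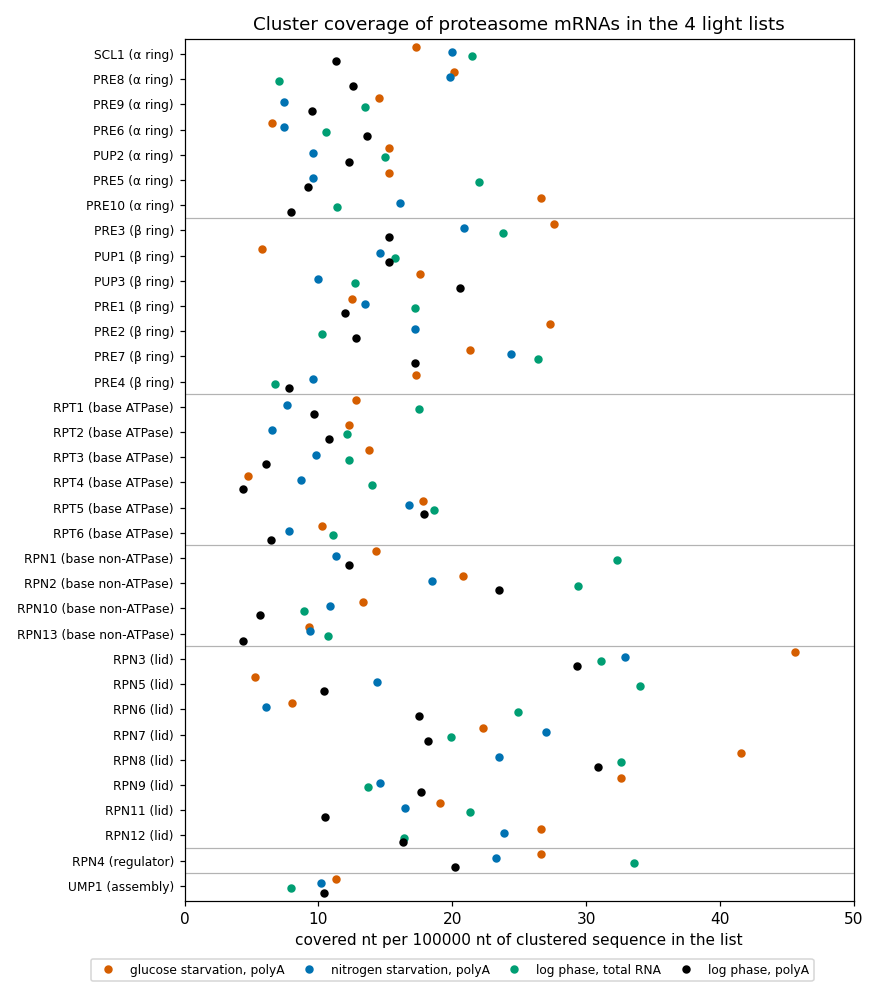
Covered nt per 100000 clustered nt (x axis) for each proteasome gene (rows, grouped by ring, base, lid, regulator and assembly factor) in glucose starvation, nitrogen starvation, total RNA and log-phase polyA RNA (colours). RPN3 and RPN8 of the lid reached 45.6 and 41.6 after glucose starvation, and RPN5 reached 34.0 in total RNA against 10.4 in log-phase polyA RNA.

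The first comparison asks how protein-bound stretches on these mRNAs differed after glucose was removed. Proteasome genes had 186 clusters after glucose starvation, against 255 in log phase, from a shorter list. Per list size this is a ratio of 1.34 (1.10 to 1.62), while all genes had 1.09 (1.07 to 1.11). The ratio was 1.27 (0.915 to 1.76) for the core particle and 1.42 (1.09 to 1.84) for the regulatory particle, and these intervals overlap over most of their length.

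By covered length, 26 of 34 proteasome genes lay above the all-gene median, against 50.0% of all genes, with a median log2 ratio of 0.22. Core genes had a median of 0.39 and regulatory genes of 0.22, an order that turned by cluster counts (0.13 and 0.28) and with clusters of at least 10 nt (0.34 and 0.36). The α ring stood at 0.39, the β ring at 0.13, the base ATPases at 0.21, the other base subunits at 0.40 and the lid at 0.30. Of all genes, 4.70% were at least 2-fold higher and 6.38% at least 2-fold lower, and 1 of the 34 passed each of these limits, a share near the background.

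PRE10, an α-ring gene, had 106 covered nt in 6 clusters after glucose starvation, against 55 nt in 3 clusters in log phase, a log2 ratio of 1.28. Its cluster ratio was 3.66, with an interval of 0.782 to 22.6 that includes 1. After glucose starvation 2 of its clusters lay within the gene, at other places than the 1 of log phase, and 3 lay after the stop codon, against 1.

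PUP1, the β subunit with trypsin-like activity, had 23 nt in 3 clusters after glucose starvation, against 106 nt in 7 clusters in log phase, a log2 ratio of -1.02. Its cluster ratio was 0.784 (0.131 to 3.44). These 3 clusters lay at sites that log-phase polyA RNA also had, 1 within the gene and 2 after the stop codon.

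The other 2 catalytic β subunits were on the opposite side of the median. PRE2, with chymotrypsin-like activity, had 109 nt after glucose starvation, against 89 nt in log phase, in 6 clusters each (log2 ratio 0.78), and PRE3, with caspase-like activity, had 110 nt in 8 clusters, against 106 nt in 9 (0.58, named for its activity after its value was seen). PRE4, a β-ring subunit without a catalytic site, had 69 nt in 3 clusters, against 54 nt in 4 (0.80). All 3 of its glucose clusters lay after the stop codon.

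Among regulatory genes, RPN10 and RPN13, which encode ubiquitin receptors, were on the higher side after glucose starvation, with log2 ratios of 0.84 and 0.72. RPN1, which docks ubiquitin shuttle proteins, stood at 0.09 (named for its function after its value was seen). RPN10 had 53 nt in 4 clusters, against 39 nt in 4 in log phase, and RPN13 had 37 nt in 3, against 30 nt in 3. RPT3, a base ATPase, had 55 nt in 5 clusters, against 42 nt in 4 (0.81). The lowest was RPN6, a lid subunit, with 32 nt in 3 clusters, against 121 nt in 6 (-0.91). No proteasome gene had a cluster ratio whose interval excluded 1 in this comparison, where 0.950% of all genes lay above and 0.458% below by this measure.

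**Figure D3:**
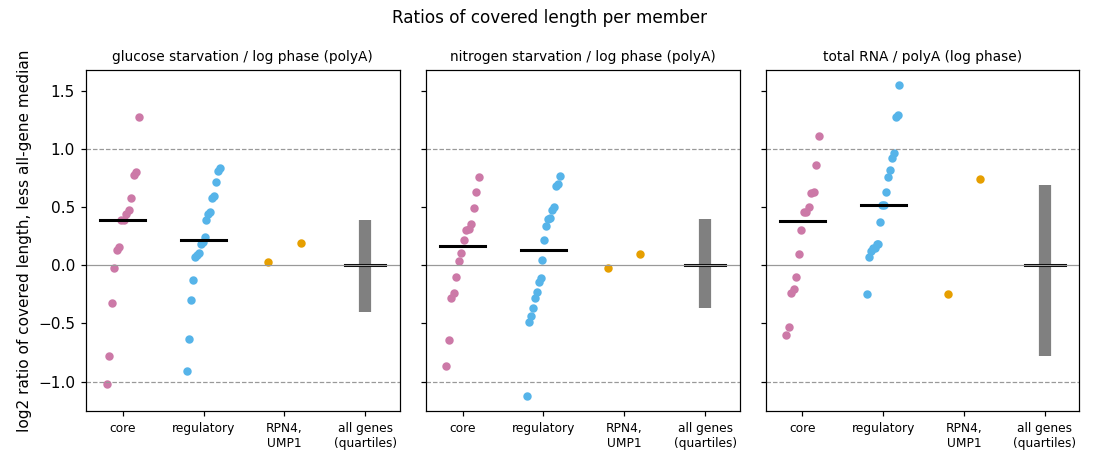
Log2 ratio of covered length less the all-gene median (y axis) for core, regulatory and other proteasome genes (points) in the 3 comparisons, with thick lines at group medians and dashed lines at 2-fold. The grey bar spans the quartiles of all genes, -0.40 to 0.39 in glucose starvation, -0.37 to 0.40 in nitrogen starvation and -0.78 to 0.69 in total RNA, and most proteasome genes lie inside 2-fold.

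After nitrogen starvation the same genes were closer to the other genes. They had 185 clusters, against 255 in log phase, a ratio per list size of 1.14 (0.936 to 1.38), and all genes had 1.04 (1.03 to 1.06). The ratio was 1.17 (0.849 to 1.61) for the core particle and 1.12 (0.860 to 1.47) for the regulatory particle. By covered length 20 of 34 lay above the all-gene median, against 50.0% of all genes. The median log2 ratio was 0.10 for all 34, 0.16 for core genes and 0.14 for regulatory genes, and these medians fell to or below 0 under some settings: -0.01 for all 34 and -0.12 for core genes when clusters under 10 nt were left out, and -0.13 for regulatory genes with flanks of 200 and 300 nt.

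No proteasome gene was 2-fold higher after nitrogen starvation, where 5.44% of all genes were, and 1 was 2-fold lower, where 4.83% were. That gene was RPN6, with 28 nt in 2 clusters, against 121 nt in 6 in log phase, a log2 ratio of -1.12 and a cluster ratio of 0.523 (0.0516 to 2.92). A single log-phase cluster of RPN6, 57 nt wide and within the gene, had no overlapping cluster in any other light list.

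Other members moved less after nitrogen starvation. PUP3, a β-ring subunit, had 46 nt in 3 clusters, against 143 nt in 10 in log phase (log2 ratio -0.87), and its 5 log-phase clusters within the gene had no counterpart in the starved list, which placed all 3 after the stop codon. PRE6, an α-ring subunit, had 34 nt in 2 clusters, against 94 nt in 6 (-0.64). On the higher side were RPN13 with 43 nt, against 30 nt (0.77), PRE10 with 74 nt, against 55 nt (0.76), the base ATPase RPT4 with 40 nt, against 30 nt (0.70), RPN10 with 50 nt, against 39 nt (0.68), and the α-ring subunit SCL1 with 92 nt, against 78 nt (0.63). No interval of a cluster ratio excluded 1, which 1.25% of all genes did from above and 0.540% from below.

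Clusters of starved cells mostly lay where log-phase clusters lay, though less so on proteasome genes when clusters under 10 nt were left out. At least 1 nt was shared with a cluster of the log-phase polyA list by 73.1% (66.3 to 79.0) of proteasome clusters after glucose starvation and 78.9% (72.5 to 84.2) after nitrogen starvation, against 74.2% and 73.2% on all mRNA genes. Read the other way, 53.7% (47.6 to 59.7) of log-phase proteasome clusters were overlapped after glucose starvation and 57.3% (51.1 to 63.2) after nitrogen starvation, against 43.5% and 48.1% on all mRNA genes. Sites called in both starvations and not in log-phase polyA RNA were few, 8 of 521 (1.54%, 0.780 to 3.00), against 2.12% on all mRNA genes. They lay on PRE3, RPN9 and RPN11, with 2 each, and on RPT1 and RPT6. RPN11 is the lid's deubiquitinase, and RPN9 is a lid subunit.

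Total RNA, set against polyA RNA of the same growth phase, showed the widest differences. Proteasome genes had 329 clusters in total RNA, against 255 in polyA RNA, a ratio per list size of 1.53 (1.29 to 1.81), and all genes had 1.27 (1.25 to 1.28). The ratio was 1.48 (1.12 to 1.96) for the core particle and 1.59 (1.27 to 1.99) for the regulatory particle. By covered length 27 of 34 lay above the all-gene median, against 50.0% of all genes, with a median log2 ratio of 0.46. For regulatory genes the median was 0.52 and 17 of 18 exceeded the all-gene value, and for core genes it was 0.38 and 9 of 14 did.

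By covered length the base stood highest in total RNA, at a median of 0.70 for its 6 ATPases and 0.74 for its 4 other subunits. All 10 of them were above the all-gene median. The α ring had 0.46, the lid 0.17 and the β ring 0.10. Cluster ratios did not set the ATPases apart, at 1.54 (0.931 to 2.56), against 1.51 for the β ring, 1.46 for the lid and 1.45 for the α ring. The other base subunits had 2.02 (1.23 to 3.37), an interval that overlaps all of these. At least 2-fold higher were 4 proteasome genes, where 16.1% of all genes were, and none was 2-fold lower, where 19.7% of all genes were.

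The largest was RPN5, a lid subunit, with 270 nt in 15 clusters in total RNA, against 72 nt in 5 in polyA RNA. Its log2 ratio was 1.55 and its cluster ratio 3.55 (1.23 to 12.5). RPN5 had 11 clusters within the gene and 3 upstream of it in total RNA, against 4 and 0 in polyA RNA, and 1 downstream of the stop codon in both.

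RPN1, the large base subunit that docks ubiquitin shuttle proteins, had 257 nt in 17 clusters, against 85 nt in 8 (1.29), with a cluster ratio of 2.51 (1.03 to 6.73). RPT4 had 111 nt in 6 clusters, against 30 nt in 3 (1.28). PRE5, an α-ring subunit, had 175 nt in 10 clusters, against 64 nt in 6 (1.11). For RPT4 and PRE5 the cluster ratio included 1, at 2.37 (0.505 to 14.6) and 1.97 (0.649 to 6.60). RPN6, singled out after its values were seen, was the only other gene of the set whose interval excluded 1, with 15 clusters, against 6, and a ratio of 2.96 (1.08 to 9.31). These 3 genes of 34 stand beside 8.74% of all genes that lay above by this measure and 3.21% that lay below. Cluster ratios were not centred on all genes, which together had 1.27 here. That value lies inside the intervals of RPN5, RPN1 and RPN6, so none of the 3 was set apart from the list-wide ratio.

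The 2 log-phase lists shared fewer places than the polyA lists did. Of proteasome clusters in total RNA, 31.9% (27.1 to 37.1) overlapped a polyA cluster, against 30.8% on all mRNA genes. Read the other way, 41.2% (35.3 to 47.3) of proteasome clusters in polyA RNA were overlapped in total RNA, against 32.2% on all mRNA genes. Clusters in total RNA on proteasome genes were 17.6% G, against 8.95% in log-phase polyA RNA, as they were richer in G on all mRNA genes. The part of this difference in base content that bears on the ratios was not tested. Proteasome clusters lay within the gene in 71.7% of cases in total RNA, against 61.6% in log-phase polyA RNA. All mRNA genes showed a like difference, with 78.8% and 68.1%, and in both lists lay above the proteasome genes.

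Cover per length of gene, which allows genes to be set side by side, was higher for proteasome mRNAs than for the middle mRNA. The median covered length within the gene was 2.96 nt per 100 nt after glucose starvation, 2.97 after nitrogen starvation, 9.15 in total RNA and 5.09 in log-phase polyA RNA, while the median of all mRNA genes was 1.42, 1.82, 3.38 and 3.11 in the same lists. RPN8, the lid partner of RPN11, led each polyA list, with 16.3 nt per 100 nt after glucose starvation, 10.6 after nitrogen starvation and 15.1 in log phase, and ranked 3 in total RNA with 20.7. PRE7, a β-ring subunit, led total RNA with 23.1 and ranked 3 in each polyA list. The lid had the highest median of the subcomplexes after glucose starvation, at 5.97, and nitrogen starvation, at 5.59. In total RNA the β ring was highest, at 12.3, against 11.6 for the lid, as in log-phase polyA RNA, at 8.27, against 7.17. The base subunits other than ATPases were lowest in each light list, at 1.08 after glucose starvation.

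RPN8 carried its clusters within the gene and almost none after it. It had 13 clusters within the gene after glucose starvation, 8 after nitrogen starvation, 13 in total RNA and 11 in log-phase polyA RNA, and 0, 0, 0 and 1 after the stop codon. RPN13 was the reverse in polyA RNA. It had no cluster within the gene in the 3 polyA lists and 4 in total RNA, and 2, 3 and 2 after the stop codon in glucose starvation, nitrogen starvation and log phase. PUP3 and PRE5 also had none within the gene in either starvation, and PRE4 and RPN5 had none there after glucose starvation.

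RPN4 had the most clusters of the 34 genes after nitrogen starvation and in total RNA. It had 9 clusters and 106 nt after glucose starvation, 11 and 107 nt after nitrogen starvation, 20 and 267 nt in total RNA, and 15 and 140 nt in log-phase polyA RNA. Less the all-gene median, the log2 ratio was 0.19 for glucose starvation, 0.10 for nitrogen starvation and 0.74 for total RNA. All 3 cluster ratios had intervals that include 1: 1.10 (0.424 to 2.68), 1.15 (0.478 to 2.68) and 1.58 (0.768 to 3.31).

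The longest stretch of RPN4 without a polyA site ran from 295 to 994 nt from the first base of the start codon, 43.8% of the gene, and total RNA alone had 6 sites there. This stretch was picked after the map had been seen, and each of the 34 genes has a longest gap of this kind. In 13 of the other genes it was a larger part of the gene, as in PRE6 with 721 of 765 nt and RPN13 with all 471 nt. Inside the gene, polyA sites lay in the first 300 nt and from 994 to 1226 nt, and 1 more, called in log phase alone, lay at 1400 nt. Sites are shown here because a starved list had them and the log-phase polyA list did not. Those also called in total RNA were bound in log phase too, so they are not particular to starvation. All are in lower case since no base was covered in all 4 lists.
RPN4, glucose starvation alone, before the start codon, chrIV:416742-416749, minus strand: tttgtatc
RPN4, glucose starvation and total RNA, before the start codon, chrIV:416725-416734, minus strand: aagttttcta
RPN4, nitrogen starvation and total RNA, after the stop codon, chrIV:415095-415109, minus strand: aggttacaaattata
In the 100 nt before the RPN4 start codon, glucose starvation had 2 cluster midpoints, nitrogen starvation 1 and total RNA 3, against 0 in log-phase polyA RNA, whose cluster nearest to the flank's outer end had its midpoint outside it.

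UMP1 had 45 nt in 4 clusters after glucose starvation, 47 nt in 4 after nitrogen starvation, 63 nt in 5 in total RNA, and 72 nt in 7 in log-phase polyA RNA. Its log2 ratios were 0.03, -0.02 and -0.25 for glucose starvation, nitrogen starvation and total RNA. Only 1 of its sites was called after glucose starvation alone, and 1 was called in all 4 lists without a common base.
UMP1, glucose starvation alone, after the stop codon, chrII:581609-581620, minus strand: tgtcctatatag
UMP1, in all 4 lists, after the stop codon, chrII:581704-581724, minus strand: aattgctctcaatttctttat

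PRE3 was the only proteasome gene of the set with an intron, which spans chrX:435228-435343 on the plus strand, 116 nt. TACTAAC, the branch point consensus of yeast introns, lies at chrX:435304-435310, ending 33 nt before the end of the intron. A site between the consensus and the end of the intron was called in all 4 light lists, and a log-phase polyA cluster at chrX:435293-435305 reached the first bases of the consensus. The site is shown because it lies in sequence that spliced PRE3 mRNA lacks, with capitals for the bases covered in all 4 lists.
PRE3, within the intron, chrX:435318-435335, plus strand: tatCTTATAAtcacctaa

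**Figure D4:**
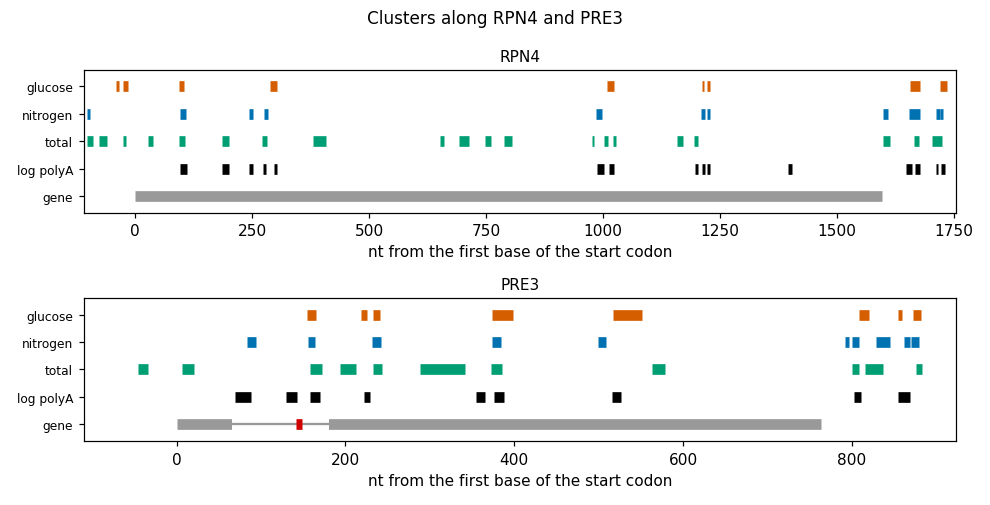
Clusters along RPN4 (top) and PRE3 (bottom) by distance from the first base of the start codon (x axis, nt) in glucose starvation, nitrogen starvation, total RNA and log-phase polyA RNA, with the gene in grey. In RPN4 only total RNA has clusters between 295 and 994 nt, and in PRE3 the thin grey line is the intron and the red mark its TACTAAC letters, with clusters of every list just to its right.

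Genes that work with the proteasome were read from lists set beside the 34. Of 16 assembly chaperones and associated factors, SEM1, a small lid subunit, among them, 1 was 2-fold higher (4.70% of all genes) and 1 lower (6.38%) after glucose starvation, and none after nitrogen starvation (5.44% and 4.83%). The higher one was SPG5, a proteasome factor of resting cells, with 127 nt, against 82 nt in log phase. The lower one was HUL5, a proteasome-bound ubiquitin ligase, with 22 nt, against 135 nt. Both cluster ratios had intervals that include 1, at 1.83 (0.548 to 6.12) for SPG5 and 0.282 (0.0309 to 1.24) for HUL5. Over the 16 genes, median log2 ratios were 0.12 in glucose starvation, -0.22 in nitrogen starvation and -0.17 in total RNA. In total RNA 2 were 2-fold higher (16.1% of all genes) and 5 lower (19.7%): BLM10, an activator of the core particle, had 382 nt in 23 clusters, against 52 nt in 6 in polyA RNA (cluster ratio 4.54, 1.80 to 13.6), while the core assembly chaperone POC4 had 7 nt in 1 cluster, against 76 nt in 7. NAS2, a base assembly chaperone, had no cluster in total RNA and 5 in polyA RNA. Unlike that of BLM10, the intervals of POC4 and NAS2 include 1, at 0.00375 to 1.32 and 0 to 1.29.

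Of 17 genes for ubiquitin, its enzymes, shuttles and CDC48, 4 were 2-fold higher in total RNA (16.1% of all genes) and none lower (19.7%), with a median log2 ratio of 0.50. CDC48, the ATPase that extracts ubiquitinated proteins, had 649 nt in 47 clusters, against 92 nt in 9 in polyA RNA, a cluster ratio of 6.18 (2.99 to 14.3). UBA1, the ubiquitin-activating enzyme, had 33 clusters, against 11, UBR1, an N-recognin ligase, 26, against 10, and the polyubiquitin gene UBI4 31, against 9. UBI4 is made of repeats, and the sources used here do not say how reads that fit several places were counted. In the starvations the medians of this list were -0.18 for glucose and -0.15 for nitrogen. After nitrogen starvation 1 gene was 2-fold higher (5.44% of all genes), the conjugating enzyme UBC5, with 72 nt, against 26 nt. Only 1 was lower (4.83%), the shuttle DDI1, with 16 nt, against 78 nt. Both cluster ratios had intervals that include 1, at 3.14 (0.670 to 19.4) for UBC5 and 0.261 (0.00568 to 2.15) for DDI1. None passed 2-fold after glucose starvation (4.70% and 6.38% of all genes).

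The 6 factors that act on RPN4 had medians of 0.41 after glucose starvation, -0.13 after nitrogen starvation and 0.11 in total RNA. The CCT chaperonin, another complex of subunits in fixed ratio, had medians of 0.36, -0.39 and 0.97, and 4 of its 8 genes were 2-fold higher in total RNA, as were 16.1% of all genes. Whether the proteasome genes differ from this complex was not tested.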

How the data were processed

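Reads of 10 gPAR-CLIP libraries in 5 groups were aligned with Bowtie 0.12.7 to R64, per the submitters' processing notes, and the authors deposited 1 list of cluster positions per group, both replicates together. The sources used here do not give the caller, its thresholds, read counts per cluster or the treatment of reads that fit several places. Cluster ends were read as 0-based starts, which was checked against base content at both edges, and are printed 1-based. Groups came from the labels. Clusters were given to genes by midpoint and strand, genes before flanks. Ratios, Wilson intervals and exact conditional intervals were computed in Python 3.11.15 with NumPy 2.4.6 and SciPy 1.17.1, and figures with matplotlib 3.10.9. The scripts were tested on simulated data. The genes and lists were chosen with earlier results of these data known. All 34 genes could be named with their counts. Folds were given for RPN4, UMP1 and, in each comparison, up to 4 core and 4 regulatory genes with the largest absolute ratio. Of the companion lists up to 4 genes each were named by the same rule. Sites printed were limited to 30 nt and 2 per gene, besides starved sites of RPN4 and UMP1 without a log-phase polyA call. Medians were recomputed under other flanks, widths, added lengths and counts.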

Additional observations from a re-analysis of the deposited data

Results flagged for a closer look

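One result lay outside the comparisons. PRE9, an α-ring gene, had 6 clusters on the strand opposite to the gene in log-phase polyA RNA, while glucose starvation had 0, nitrogen starvation 1 and total RNA 1. All 6 lay from 326 to 774 nt from the first base of the start codon. Opposite-strand clusters were common in the log-phase polyA list, with 6010 on 2433 mRNA genes. The share of mRNA genes with as many as 6 was not computed, so whether the PRE9 count is unusual was not tested. Over the 34 genes, opposite-strand clusters numbered 2 after glucose starvation, 9 after nitrogen starvation, 2 in total RNA and 16 in log-phase polyA RNA. Any such cluster was present on 2.94%, 23.5%, 5.88% and 29.4% of the proteasome genes in those lists, and on 831, 1190, 825 and 2433 of the 5911 mRNA genes. The proteasome share was below the mRNA share after glucose starvation (14.1%), in total RNA and in log-phase polyA RNA (41.2%). After nitrogen starvation it was above the mRNA share (20.1%). PUP2 was the only proteasome gene with an opposite-strand cluster after glucose starvation, where it had 2. No gene on the same strand lay within the windows of the 34, while opposite-strand genes reached the downstream flanks of PRE7 (ERD2), RPT4 (HNT3), RPN10 (PPX1) and RPN9 (BNA7).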

How the results depend on the processing

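Of 192 values recomputed under 11 settings for 26 results, 159 were classed as the same. For a median this meant the same sign and a move of at most 50% of the log2 width of the cluster-ratio interval. That limit is wide: the core median after glucose starvation counted as the same at 0.13 by cluster counts, against 0.39. Of 90 medians, 3 turned sign, all for nitrogen starvation: -0.01 for all 34 genes and -0.12 for core genes with clusters of at least 10 nt, and -0.13 for regulatory genes with flanks of 200 and 300 nt. Counts past 2-fold are given with the share of all genes in parentheses, which moved with the settings too. Without flanks, 4 genes were lower after glucose starvation (8.48%), 2 after nitrogen starvation (6.77%) and 2 in total RNA (19.9%), and 0 (6.32%), 1 (7.40%) and 6 (17.9%) were higher. With clusters of at least 10 nt, 3 were higher (9.36%) and 2 lower (7.62%) after glucose starvation and 2 higher (8.58%) after nitrogen starvation. With 5 nt added, 4 were higher (9.30%) and 2 lower (14.1%) after glucose starvation, 1 higher (9.84%) after nitrogen starvation and 7 higher (22.0%) in total RNA. With 50 nt added, none was higher (0.900% and 1.44%) or lower (1.83% and 1.49%) in either starvation and 2 were higher (10.0%) in total RNA. By cluster counts, none was lower (9.40% and 8.31%) in either starvation and 8 were higher (19.0%) in total RNA. With at least 3 clusters in a list, none was lower (6.47%) after glucose starvation. Overlap with log-phase polyA clusters was 57.6% in glucose starvation, 64.8% in nitrogen starvation and 22.2% in total RNA with clusters of at least 10 nt, and 70.8% in nitrogen starvation and 26.7% in total RNA when the overlap had to cover 50% of the shorter cluster. The same shares on all mRNA genes were not computed under these settings. Without flanks, the 34 genes held 0.330% of clusters in glucose starvation, 0.265% in nitrogen starvation, 0.458% in total RNA and 0.257% in log-phase polyA RNA, and with flanks of 200 and 300 nt 0.478% in the last. The cause was not tested. No paired analysis was possible because each group has 1 list for both replicates, which also leaves no replicate to leave out. Low counts per gene limit single genes more than the group ratios.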
